A study of Mus musculus with 9 samples.

Results

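Potassium channel genes were taken as every row of the deposited count table whose Ensembl identifier maps to a mouse symbol starting with Kcn, apart from Kcnj13 and Kcne2, which mark the choroid plexus. The rule found 92 genes among 22255 identifiers. By their symbols 76 of them encode pore-forming subunits and 15 encode auxiliary subunits. The last, Kcnrg, encodes a soluble regulator of channel assembly.

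The RNA came from synaptoneurosomes, a fraction of hippocampal homogenate enriched in pinched-off synaptic endings. All 9 samples were from Fmr1 KO mice of the strain C57Bl/6J, which model fragile X syndrome. Of these, 4 samples (replicates A, B, C and E) were from mice given AM6545 over a sub-chronic course, and 5 (replicates A to E) were from mice given vehicle. AM6545 is an antagonist of the cannabinoid receptor CB1 that enters the brain poorly, and the series title links blocking of peripheral CB1 to a serotonergic mechanism and to cognition. The dose, the length of treatment, the age and the sex are not given in the sources used here, and wild-type mice are not analysed here, so the knockout is common to both groups. The labels do not say whether each sample came from 1 mouse or from a pool. The p-values below therefore measure only the spread between these samples.

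Potassium channels let potassium leave or enter the cell and so set the resting potential, shape the action potential and limit repetitive firing and transmitter release. Each pore is built from 4 subunits, or from a pair of subunits that each carry a double pore loop, and a short loop in every pore-forming subunit makes the selectivity filter. Voltage-gated subunits (Kcna to Kcnd, Kcnh, Kcnq) open on depolarisation, calcium- or sodium-activated subunits (Kcnma, Kcnn, Kcnt) respond to ions inside the cell, inward rectifiers (Kcnj) and K2P leak subunits (Kcnk) hold the resting potential, and cytoplasmic or membrane partners (Kcnab, Kcnip, Kcnmb, Kcne) change gating and trafficking. FMRP, the RNA-binding protein encoded by Fmr1, has been reported to bind the Kcnd2 and Kcnc1 transcripts and to bind the channels built from Kcnt1 and from Kcnma1 with Kcnmb4.

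The feature that the pore-forming genes share is the selectivity filter signature. It was searched for, in the reading frame of the coding strand only, as 5 codons in a row for threonine or serine, then valine, isoleucine or leucine, then glycine, then tyrosine or phenylalanine, then glycine. Leucine was allowed after a first search had been read. The signature stood in 74 of the 76 pore-forming members (97.4%) and in none of the 16 other members, against 0.397% of 21169 other genes in the table and 0.743% of all 21261 genes with a coding sequence. The pore-forming members without it in this form were Kcnk1 and Kcnk7, and 11 of the 14 Kcnk members held 2 copies. The stretches below show it for members that the results turn on, 1 or more from most classes of pore. Capitals mark the signature of 15 bases, and 18 coding bases are shown on either side, 5′ to 3′ on the coding strand.

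Kcna1: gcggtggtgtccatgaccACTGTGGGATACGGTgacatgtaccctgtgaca
Kcna2: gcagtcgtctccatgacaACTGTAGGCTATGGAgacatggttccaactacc
Kcnc1: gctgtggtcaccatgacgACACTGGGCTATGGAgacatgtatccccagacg
Kcns2: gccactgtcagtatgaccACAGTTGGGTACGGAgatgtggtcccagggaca
Kcnh3: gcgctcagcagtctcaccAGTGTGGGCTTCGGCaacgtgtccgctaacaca
Kcnh8: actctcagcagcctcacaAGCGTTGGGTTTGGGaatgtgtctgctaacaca
Kcnma1: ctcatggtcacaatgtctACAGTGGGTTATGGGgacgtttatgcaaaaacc
Kcnt1: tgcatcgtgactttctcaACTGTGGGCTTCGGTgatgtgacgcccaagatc
Kcnj3: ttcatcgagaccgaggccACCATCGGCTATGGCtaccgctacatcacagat

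All of these lie in coding exons of the GENCODE M21 annotation on GRCm38, from which they were read. They are at chr6:126642210-126642260 for Kcna1 (minus strand, exon 2 of 2) and chr3:107105206-107105256 for Kcna2 (plus, exon 3 of 3). Kcnc1 is at chr7:46427955-46428005 (plus, exon 2 of 4). Kcns2 is at chr15:34839594-34839644 (plus, exon 2 of 2), Kcnh3 at chr15:99232911-99232961 (plus, exon 8 of 15) and Kcnh8 at chr17:52877973-52878023 (plus, exon 8 of 16). Kcnma1 is at chr14:23528395-23528445 (minus, exon 8 of 31) and Kcnt1 at chr2:25894349-25894399 (plus, exon 11 of 32). Kcnj3 is at chr2:55437609-55437659 (plus, exon 2 of 4).

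Libraries held 17628922 to 27263393 estimated counts per sample, of which mitochondrially encoded transcripts made up 4.06% to 7.90%. Fmr1, the knocked-out gene, stood at 10.1 ± 0.754 CPM (SD, n = 4) in AM6545 samples and 11.7 ± 1.18 CPM (SD, n = 5) in vehicle samples, from 199 to 310 counts. Without a wild-type sample this level checks no label. The fraction carried transcripts of hippocampal neurons and of glia. Markers of excitatory neurons summed to 1906 to 2468 CPM per sample, those of astrocytes to 3657 to 5597 CPM and those of oligodendrocytes to 10740 to 22470 CPM. Such sums depend on the genes listed and do not give the share of a cell type. Choroid plexus markers ran from 47.3 to 4307 CPM among vehicle samples and from 60.4 to 926 CPM among AM6545 samples. They were highest in vehicle A, D and E.

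The 92 potassium channel genes together took 0.270% to 0.332% of the counts of a sample. CPM here stands for estimated counts scaled by library size and edgeR's TMM factor. Of the 92 genes, 8 averaged 100 CPM or more, 41 lay from 10 to under 100 CPM, 25 from 0.5 to under 10 CPM, and 15 below 0.5 CPM but not at 0. Kcnj1, Kcnk16 and Kcnv2 had 0 counts in all 9 libraries, which at these depths allows up to 0.11 to 0.173 CPM in a sample, for counting error only. The filter on low counts left 75 genes for testing. The 17 left out were Kcna7, Kcna10, Kcne1, Kcne3, Kcng3, Kcnj1, Kcnj5, Kcnj15, Kcnk7, Kcnk15, Kcnk16, Kcnk18, Kcnmb3, Kcnn4, Kcnq1, Kcnrg and Kcnv2.

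Levels were compared between genes only as CPM per kilobase of transcript, with the median length of each gene's protein-coding transcripts in the GENCODE M21 basic set. On that scale the highest member was Kcnk1, a K2P leak subunit, at 114 CPM per kilobase averaged over the 9 samples. Kcnip2, which encodes the KChIP2 partner of Kv4 channels, followed at 107. After a gap came Kcnab1, the Kvβ1 subunit of Kv1 channels, at 50.4, and Kcnma1, the pore of the BK channel, at 49.0. Further down were Kcnab2 at 35.7, Kcna1 at 35.5, Kcnip3 at 34.6, Kcnip4 at 33.1 and Kcnn2 at 32.4 CPM per kilobase. Neighbours among these last 5 differed by less than the spread of either over samples, so their order is not resolved, and the same held for Kcnk1 against Kcnip2 and for Kcnab1 against Kcnma1. In GENCODE M21 an exon of Kcnip4 overlaps 5730480H06Rik on the opposite strand. The median tested member had 6.13 CPM per kilobase, against 7.21 for all genes tested. By subfamily the 4 Kcnip genes held 19.3% of the members' summed CPM per kilobase, the 14 Kcnk genes 15.6%, Kcnab 9.78%, Kcnj 8.91% and Kcna 7.52%. The order depended on the length taken for a gene. With the median over all protein-coding transcripts of M21, Kcnip2 stood at 184.9 CPM per kilobase, above Kcnk1, and Kcng2 at 80.7 (17.7 with the basic set) and Kcnab2 at 80.1 stood above Kcnab1.

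**Figure D1:**
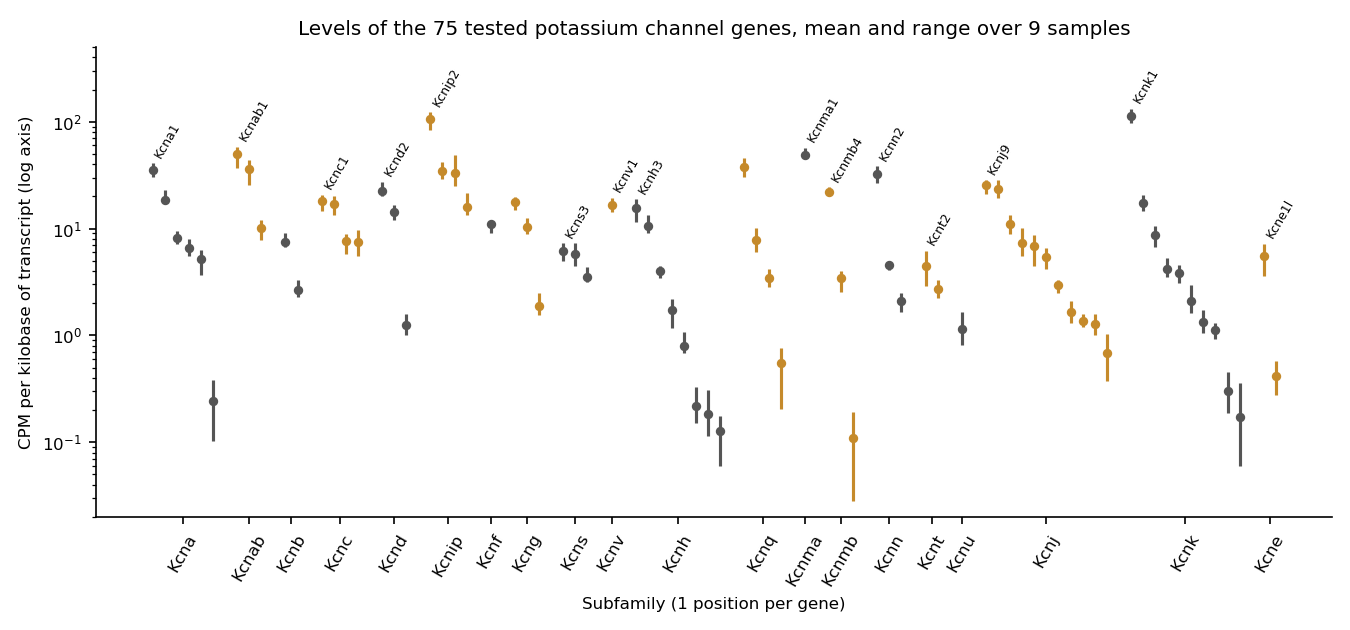
Levels of the 75 tested potassium channel genes by subfamily, as CPM per kilobase of transcript on a log axis; points are means over 9 samples, lines run from the lowest to the highest sample, colours only separate neighbouring subfamilies, and the highest gene is named for most. With lengths from the basic transcript set, Kcnk1 (114) and Kcnip2 (107) stand above all others, and Kcnab1 (50.4) and Kcnma1 (49.0) come next.

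AM6545 and vehicle samples were then compared, which asks whether channel transcripts in the synaptic fraction differ after peripheral CB1 blockade. No potassium channel gene passed the test, and neither did any other gene: 0 of 14512 genes (0%) passed 0.05 after Benjamini-Hochberg adjustment of edgeR's quasi-likelihood p-values, and the smallest adjusted p was 0.653. DESeq2 and limma-voom also called 0, with 5 and 6 members at an unadjusted p under 0.05, against 7.73% and 5.995% of all tested genes. The differences within the family were small and mostly upward: 56 of the 75 tested members were higher in AM6545 samples and 19 lower, where 48.2% of all tested genes were higher. The median log2 fold change was 0.089 for the members and -0.0090 for all genes tested, and the quartiles of the members were -0.00081 and 0.18. At an unadjusted p under 0.05 stood 5 higher members, among them Kcns2, Kcnc1, Kcnh3 and Kcnab2, and 1 lower member (Kcnh8), against 3.03% of all tested genes higher and 4.18% lower. No member had groups that did not overlap, against 0.579% of all tested genes with every AM6545 sample above every vehicle sample and 0.868% with every one below.

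The median rested in part on 1 library. Without AM6545 E it was 0.050, with 48 of 75 members higher, against -0.019 for all tested genes. Without both AM6545 E and vehicle A it was 0.033, with 46 of 75 higher, against -0.011 for all tested genes. With each sample's trend of counts with transcript length removed it was 0.058, against -0.0055 for all tested genes. The number of members at an unadjusted p under 0.05 was 1 without AM6545 E and 9 without vehicle B. Over all tested genes the share under that threshold also moved, to 12.65% without AM6545 E and 12.45% without vehicle B, from 7.215% as reported.

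**Figure D2:**
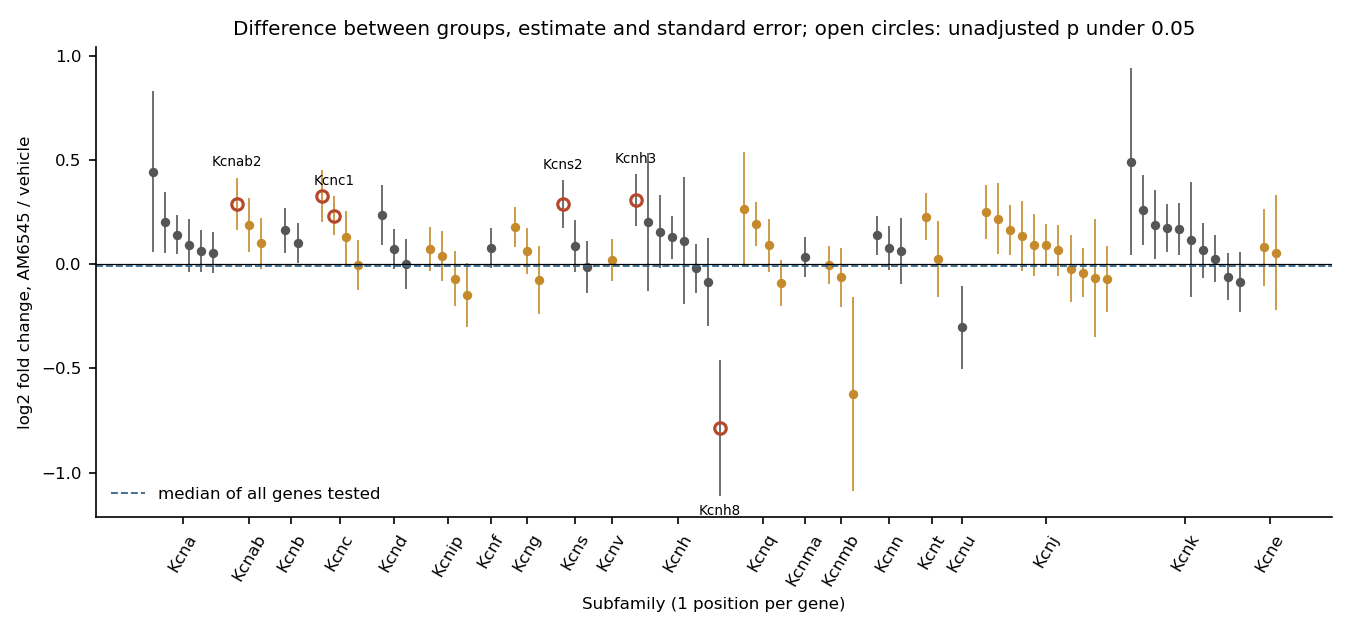
Log2 fold change of AM6545 over vehicle samples for the 75 tested genes by subfamily, with standard errors; open circles mark the 6 genes with an unadjusted p under 0.05 and the dashed line is the median of all genes tested. Estimates run from -0.78 (Kcnh8) to 0.49 (Kcnk5), 56 lie above 0, and the widest error bars belong to genes with few counts.

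Kv1 subunits (Kcna) form low-threshold channels of axons and terminals. All 6 tested Kcna genes were higher in AM6545 samples, with a median log2 fold change of 0.12 and none at an unadjusted p under 0.05. Kcna1, the most abundant of them per kilobase, was measured at 125, 126, 147 and 139.8 CPM in AM6545 A, B, C and E and at 119, 125, 133, 122 and 110.1 CPM in vehicle A to E. AM6545 C was the highest sample and vehicle E the lowest, and the groups overlapped. Its log2 fold change was 0.14 ± 0.092 (SE).

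Kcna2 was at 74.0, 77.2, 76.8 and 99.3 CPM in the AM6545 samples and at 79.5, 79.9, 79.2, 74.7 and 80.8 CPM in the vehicle samples. AM6545 E alone stood above all vehicle samples, while AM6545 A stood below them. The log2 fold change of 0.054 ± 0.099 (SE) became -0.052 without AM6545 E. The largest Kcna estimate, 0.44 ± 0.386 (SE), belonged to Kcna5, which had 148 counts over the 9 samples.

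The Kvβ subunits (Kcnab) attach to Kv1 channels and speed their inactivation or aid their delivery. All 3 were higher in AM6545 samples, with a median of 0.19. Kcnab2 was at 156, 136, 127 and 143 CPM in AM6545 A, B, C and E and at 104, 147, 113, 90.1 and 120.4 CPM in vehicle A to E. Vehicle B reached the AM6545 range and vehicle D was the lowest. The means were 140.4 ± 12.3 CPM (SD, n = 4) and 115 ± 21.0 CPM (SD, n = 5). The fold was 1.22, or 0.29 ± 0.126 on the log2 scale (SE), with an unadjusted p of 0.038 and an adjusted p of 0.653 by edgeR's quasi-likelihood test. Kcnab1 was at 150.9 to 183 CPM in AM6545 samples and 120.2 to 189.5 CPM in vehicle samples, with a log2 fold change of 0.10 ± 0.123 (SE), which was 0.016 without vehicle A. Of 7 genes for the axonal complex that holds Kv1 channels (Cntn2, Cntnap1, Cntnap2, Adam22, Adam23, Lgi1 and Epb41l3), all were higher in AM6545 samples, with a median of 0.14 and none at an unadjusted p under 0.05.

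Kv2 subunits (Kcnb) carry delayed rectifier current in the soma and dendrites. Kcnb2 had a log2 fold change of 0.16 ± 0.107 (SE).

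Kv3 subunits (Kcnc) open at high voltage and close quickly, which lets interneurons and presynaptic endings fire at high rates. Of the 4 Kcnc genes 3 were higher, with a median of 0.18. Kcnc1 was at 97.3, 113, 108 and 109.7 CPM in AM6545 A, B, C and E and at 95.04, 95.7, 80.4, 99.7 and 84.4 CPM in vehicle A to E. Among the AM6545 samples only A fell within the vehicle range, below vehicle D. The means were 107 ± 6.65 CPM (SD, n = 4) and 91.1 ± 8.21 CPM (SD, n = 5), a fold of 1.17. The log2 fold change was 0.23 ± 0.094 (SE), with an unadjusted p of 0.0269 and an adjusted p of 0.653 by edgeR.

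Kcnc2 and Kcnc4 had log2 fold changes of -0.0048 and 0.13. Interneuron markers, which include Pvalb of fast-firing cells, did not move one way: 3 of 6 were higher, with a median of -0.017. Pvalb, Sst and Vip had log2 fold changes of -0.36, -0.26 and -0.14, and Gad1, Gad2 and Slc32a1 had 0.15, 0.11 and 0.23. The summed levels were 682 to 823 CPM in AM6545 samples and 724 to 835 CPM in vehicle samples.

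**Figure D3:**
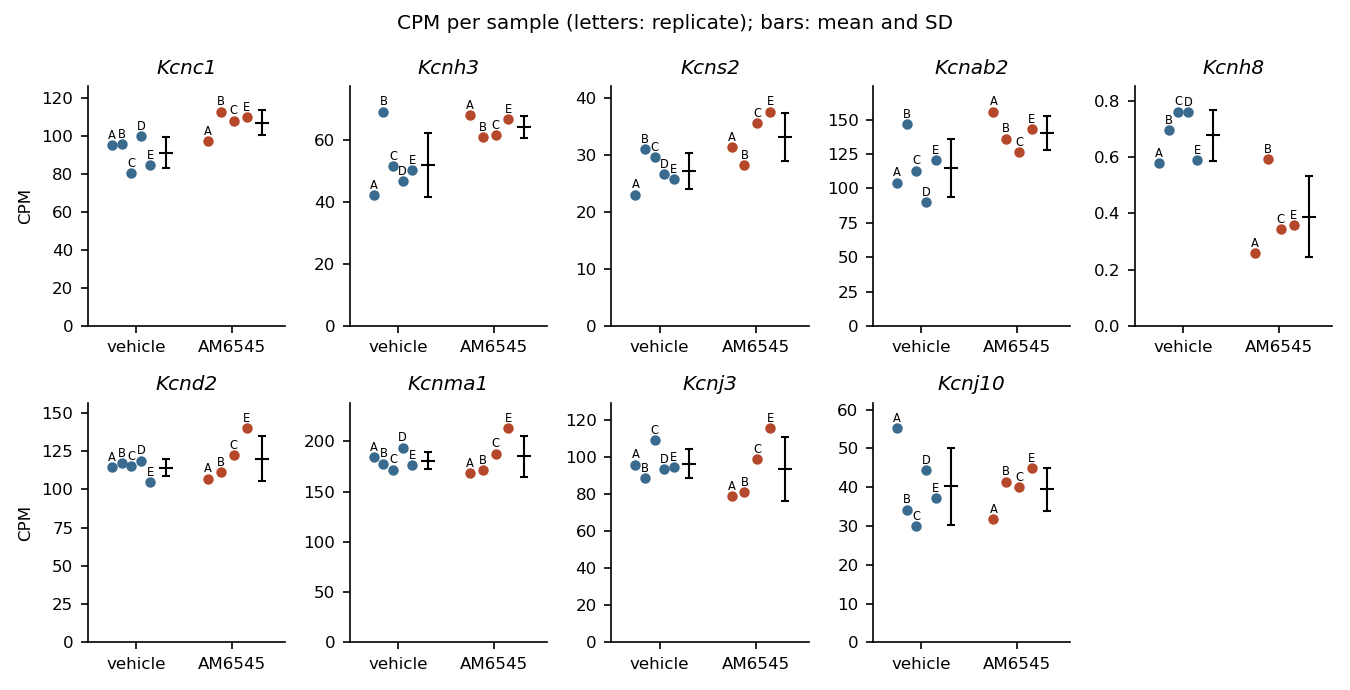
CPM per sample for 9 potassium channel genes, vehicle in blue and AM6545 in red, each point labelled with its replicate letter and bars giving the mean and SD. In Kcnc1, Kcnh3, Kcns2, Kcnab2 and Kcnh8, each with an unadjusted p under 0.05, the ranges of the groups overlap, as they do for Kcnd2, Kcnma1, Kcnj3 and Kcnj10.

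Kv4 subunits (Kcnd) carry the A-type current that damps signals in hippocampal dendrites. Kcnd2 was at 107, 111, 122 and 139.9 CPM in the AM6545 samples and at 115, 117, 115, 119 and 105 CPM in the vehicle samples. AM6545 C and E were above every vehicle sample and A and B within their range. The log2 fold change of 0.073 ± 0.097 (SE) became -0.0084 without AM6545 E. Kcnd1 and Kcnd3 had log2 fold changes of 0.24 and 0.0024. The KChIP partners (Kcnip), calcium-binding proteins that bring Kv4 channels to the surface, were split, with 2 of 4 higher and a median of -0.016. Kcnip2 was at 133, 127, 139.9 and 128 CPM in the AM6545 samples and at 121, 147, 133, 101 and 125 CPM in the vehicle samples, so the vehicle samples enclosed the AM6545 samples. Dpp6, the transmembrane partner of Kv4 channels, had a log2 fold change of 0.31 ± 0.115 (SE), with means of 167 CPM in AM6545 and 135 CPM in vehicle samples and an unadjusted p of 0.0165 (adjusted p 0.653, edgeR). Its relative Dpp10 had 0.019.

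The silent subunits (Kcnf, Kcng, Kcns, Kcnv) form no channel alone and modify Kv2 channels. Of their 8 tested genes, 6 were higher. Kcns2 was at 31.4, 28.3, 35.7 and 37.6 CPM in AM6545 A, B, C and E and at 23.1, 31.1, 29.6, 26.7 and 25.7 CPM in vehicle A to E. AM6545 A, C and E were above every vehicle sample, B was within their range and vehicle A was the lowest. The fold was 1.22 and the log2 fold change 0.29 ± 0.115 (SE), with an unadjusted p of 0.0259 and an adjusted p of 0.653 by edgeR. Kcnf1, Kcng1 and Kcnv1, at 52.3, 33.3 and 73.4 CPM over all samples, had log2 fold changes of 0.078, 0.063 and 0.019.

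The Kcnh genes encode the EAG, ERG and ELK channels. Of 8 tested genes 5 were higher, with a median of 0.12. In this subfamily 1 gene at each end had an unadjusted p under 0.05, against 3.03% of all tested genes higher and 4.18% lower. Kcnh3, an ELK channel of forebrain neurons, was at 68.1, 61.1, 61.6 and 66.9 CPM in AM6545 A, B, C and E and at 42.2, 69.2, 51.5, 46.8 and 50.3 CPM in vehicle A to E. Every vehicle sample but B lay below every AM6545 sample, and vehicle B lay above them all. The fold was 1.24 and the log2 fold change 0.31 ± 0.126 (SE), with an unadjusted p of 0.0285 and an adjusted p of 0.653 by edgeR. In GENCODE M21 an exon of Kcnh3 overlaps Mcrs1 on the opposite strand, and the strand setting of the counting is not given in the sources used here. Reads from the overlapping stretch therefore may not be assigned to the right gene. No match of at least 200 bases at 95% was found between coding transcripts of Kcnh3 and Mcrs1.

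Kcnh8, another ELK channel, was near the lower limit of measurement. It was at 0.258, 0.593, 0.343 and 0.357 CPM in AM6545 A, B, C and E and at 0.578, 0.695, 0.762, 0.761 and 0.590 CPM in vehicle A to E, from 5 to 19 counts per sample and 113 in all. AM6545 B lay within the vehicle range and the other AM6545 samples below it. The fold was 0.581 and the log2 fold change -0.78 ± 0.325 (SE), with an unadjusted p of 0.0297 and an adjusted p of 0.653 by edgeR. Of the remaining genes Kcnh1, at 28.7 CPM over all samples, had a log2 fold change of 0.13, and Kcnh7, at 32.2 CPM, had -0.020. Kcnh7 shares a stretch of 696 bases at 100% identity with the overlapping gene Gca on the opposite strand, so its level is uncertain.

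Kv7 subunits (Kcnq) carry the M current, which is shut off by muscarinic and other receptors. Kcnq3 was at 33.8, 38.0, 40.5 and 45.5 CPM in the AM6545 samples and at 49.9, 38.5, 39.9, 39.9 and 41.9 CPM in the vehicle samples, with a log2 fold change of -0.089 ± 0.11 (SE). Kcnq5 had 0.090.

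BK channels (Kcnma1) open on calcium and depolarisation together and shorten the action potential in terminals. Kcnma1 was at 168, 172, 188 and 213 CPM in the AM6545 samples and at 184, 178, 172, 194 and 177 CPM in the vehicle samples. AM6545 E was the highest and AM6545 A the lowest of all 9. The log2 fold change was 0.034 ± 0.095 (SE), and -0.040 without AM6545 E. Its neuronal partner Kcnmb4 had the steadiest level of the family, 33.2, 28.5, 30.0 and 27.8 CPM in AM6545 samples and 30.8, 31.3, 29.2, 27.9 and 30.5 CPM in vehicle samples. Its log2 fold change was -0.0040 ± 0.091 (SE), and all 3 tested Kcnmb genes had estimates below 0. Kcnmb1, the smooth muscle partner, had -0.62 ± 0.466 (SE) from 98 counts in all. Mural cell markers were 4 of 7 higher beside it, at 90.1 to 168 CPM summed in AM6545 and 77.4 to 179 CPM in vehicle samples, and their part in that value was not tested.

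SK channels (Kcnn) are opened by calcium and follow spikes with a slow hyperpolarisation. All 3 tested Kcnn genes were higher, with a median of 0.078. Kcnn2 was at 88.6, 84.2, 100.8 and 86.4 CPM in the AM6545 samples and at 70.7, 81.9, 82.9, 89.8 and 83.5 CPM in the vehicle samples. AM6545 C was the highest and vehicle A the lowest, and the log2 fold change was 0.14 ± 0.095 (SE).

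The sodium-activated channels Kcnt1 and Kcnt2 stood at 2.72 and 4.48 CPM per kilobase over all samples, against 6.13 for the median tested member. Kcnt1 was at 11.8, 12.2, 11.6 and 13.7 CPM in the AM6545 samples and at 9.42, 11.7, 11.5, 10.2 and 9.88 CPM in the vehicle samples. Only vehicle B, above AM6545 C, made the groups overlap, and the log2 fold change was 0.23 ± 0.113 (SE) with an unadjusted p of 0.0637 and an adjusted p of 0.653 by edgeR. Kcnt2 ran from 10.6 to 22.5 CPM in AM6545 samples and from 14.3 to 18.2 CPM in vehicle samples. Its log2 fold change of 0.025 ± 0.181 (SE) became -0.17 without AM6545 E.

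Inward rectifiers (Kcnj) include the Kir3 channels that G proteins open below serotonin, GABA-B and other receptors. Kcnj3, which encodes Kir3.1, was at 79.0, 81.2, 99.2 and 116 CPM in AM6545 A, B, C and E and at 96.1, 88.6, 109, 93.9 and 94.9 CPM in vehicle A to E. AM6545 held both the lowest samples, A and B, and the highest, E, and the log2 fold change was -0.041 ± 0.118 (SE). Kcnj6, which encodes Kir3.2, was at 14.5, 14.2, 17.9 and 18.1 CPM in the AM6545 samples and at 11.4, 16.0, 12.3, 13.2 and 15.2 CPM in the vehicle samples. Here AM6545 C and E were above every vehicle sample and the log2 fold change was 0.25 ± 0.129 (SE), with an unadjusted p of 0.0757 and an adjusted p of 0.653 by edgeR. Kcnj9, which encodes Kir3.3, ran from 73.4 to 85.4 CPM in AM6545 and from 64.3 to 87.0 CPM in vehicle samples, with a log2 fold change of 0.091. Kcnj5, the heart form, was below the filter with 39 counts in all. The Kir3 partners Snx27, Rgs7 and Gnb5 had log2 fold changes of 0.034 to 0.052.

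Kcnj10 encodes Kir4.1, the potassium-clearing channel of astrocytes. It was at 31.7, 41.4, 40.0 and 44.9 CPM in the AM6545 samples and at 55.2, 34.2, 30.0, 44.4 and 37.2 CPM in the vehicle samples, so vehicle samples were both the highest, A, and the lowest, C. The log2 fold change was -0.022 ± 0.16 (SE), and its sign turned to 0.12 without vehicle A. Its partner Kcnj16 had 0.16 ± 0.12 (SE). Of 8 astrocyte markers 4 were higher beside them, with a median of 0.0053, and their summed level was 4634 to 4886 CPM in AM6545 samples and 3657 to 5597 CPM in vehicle samples, lowest in vehicle C. In such bulk RNA fewer cell fragments of a type and less RNA in each cannot be told apart.

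The KATP channel pore genes averaged 9.30 CPM (Kcnj11) and 1.63 CPM (Kcnj8) over all samples. Kcnj11, the neuronal form, had a log2 fold change of 0.066. Kcnj8, the form of pericytes and vascular muscle, ran from 0.901 to 2.46 CPM in AM6545 and from 1.27 to 2.11 CPM in vehicle samples, with -0.066 ± 0.282 (SE). Abcc8, the neuronal sulfonylurea receptor that pairs with Kcnj11, was at 17.0, 17.0, 23.8 and 22.8 CPM in AM6545 samples and at 15.3, 18.1, 13.1, 16.9 and 13.9 CPM in vehicle samples. Its log2 fold change was 0.38 ± 0.137 (SE), with an unadjusted p of 0.0144 and an adjusted p of 0.653 by edgeR. Over the whole list of 26 tested partner genes 16 were higher and 10 lower, with a median of 0.041. Dpp6 and Abcc8 were the only 2 of the 26 at an unadjusted p under 0.05, against 7.215% of all tested genes.

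K2P subunits (Kcnk) carry leak current. Of 10 tested genes 8 were higher, with a median of 0.14 and none at an unadjusted p under 0.05. The exceptions were Kcnk10 at -0.086 and Kcnk1. Kcnk1 was at 183, 173, 201 and 233 CPM in the AM6545 samples and at 223, 198, 175, 233 and 201 CPM in the vehicle samples, with a log2 fold change of -0.061 ± 0.114 (SE). The largest estimate, 0.49 ± 0.447 (SE), belonged to Kcnk5 with 116 counts in all. Kcnk2, Kcnk4 and Kcnk9, at 27.6, 15.4 and 13.7 CPM over all samples, had log2 fold changes of 0.027, 0.17 and 0.17. In GENCODE M21 Kcnk4 overlaps Catsperz on the same strand.

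The Kcne genes encode small membrane partners. Kcne1l, the most abundant of them, ran from 7.29 to 9.61 CPM in AM6545 and from 5.54 to 11.2 CPM in vehicle samples, with a log2 fold change of 0.080 ± 0.184 (SE). Grouped by role, 49 of the 63 tested pore-forming genes were higher, with a median of 0.091, and 7 of the 12 tested auxiliary genes, with a median of 0.047. The difference between the roles was not tested.

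Among the samples, AM6545 E stood apart for this family. It held the highest value for 28 of the 75 tested members (37.3%), while it was the highest sample for 14% of all tested genes. Its members deviated from their means over the 9 samples by a median log2 difference of 0.21, and those of the other AM6545 samples by -0.021, -0.032 and 0.052 in A, B and C. Vehicle A was the lowest sample for 18 members (24%, against 15.9% of all tested genes), with a median of -0.092. The medians of vehicle B to E were 0.055, 0.011, -0.057 and -0.050, so the groups overlapped.

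The same samples lay at the ends of a trend with transcript length across all tested genes. The slope was 0.079 log2 units per doubling of length in AM6545 E, -0.086 in vehicle A and -0.069 in vehicle D. In the other samples it ran from -0.026 to 0.033. Potassium channel transcripts are long, with a median of 3202 bases against 2748 for all genes tested. Between 2000 and 4000 bases the 42 members had a median log2 fold change of 0.090, against 0.019 for 6179 genes of that length. From 4000 bases up the 24 members had 0.090, against 0.036 for 3780 genes, and below 2000 bases the 9 members had 0.073, against -0.089 for 4535 genes. Across genes, which are not independent replicates, Spearman's rho of log2 fold change with length was 0.144 over the 75 members and 0.297 over all genes with a length. The part of this trend in the family's median was tested only by removing it, which gave the 0.058 above.

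**Figure D4:**
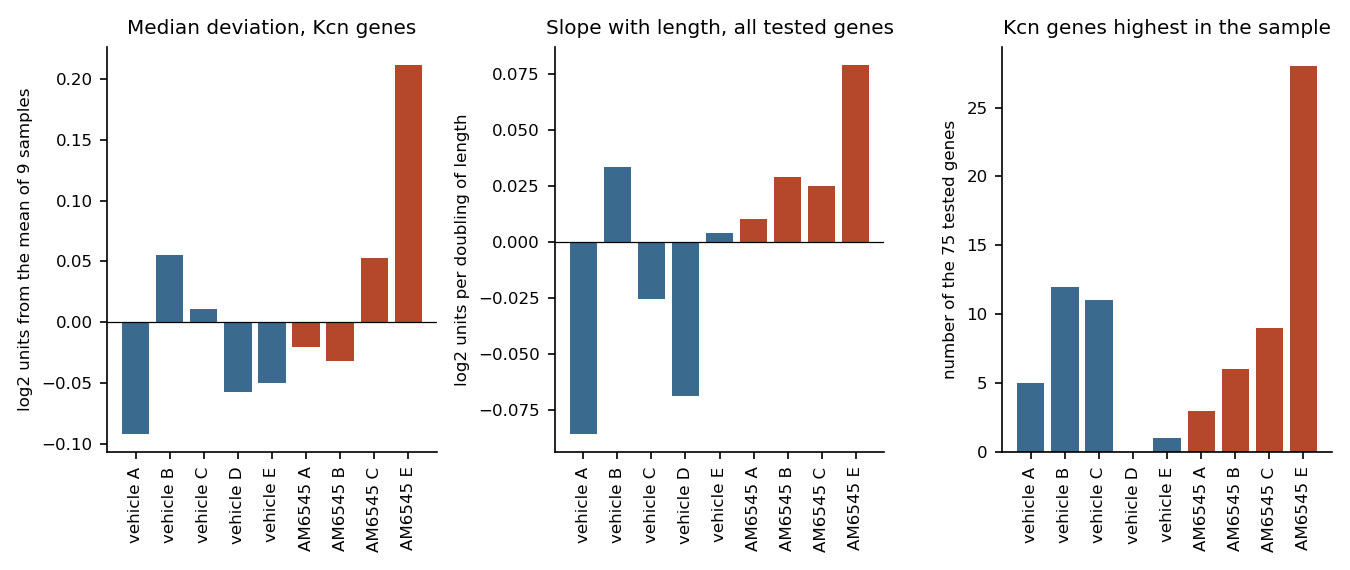
Per sample, from left to right: median deviation of the 75 tested potassium channel genes from their mean over 9 samples, slope of all tested genes with transcript length, and number of potassium channel genes highest in that sample; vehicle in blue, AM6545 in red. AM6545 E has the highest bar in all panels (0.21, 0.079 and 28), and vehicle A the lowest in the first and second.

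Markers of hippocampal excitatory neurons were also higher in AM6545 samples, in 7 of 7 genes with a median of 0.15. Their summed level was 2049 to 2468 CPM in AM6545 samples and 1906 to 2266 CPM in vehicle samples, highest in AM6545 C, and none was at 0. Their part in the family's median was not tested. Choroid plexus markers were lower in 7 of 7 genes, with a median of -1.27, and ependymal markers in 5 of 5, with -0.80. Both sums were highest in vehicle A, D and E. Ependymal markers summed to 23.2, 18.3 and 16.6 CPM in vehicle A, D and E. In vehicle B and C they summed to 10.7 and 11.6 CPM, and in AM6545 samples to 9.915 to 11.2 CPM. Microglial markers were higher in 6 of 7, with 0.13, endothelial markers in 1 of 6, with -0.33, and oligodendrocyte markers in 3 of 6, with -0.052.

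Pore genes of other voltage-gated channels (sodium channels Scn, calcium channels Cacna1 and HCN channels) were set beside the family for contrast. Of 20 tested genes 17 were higher, with a median log2 fold change of 0.14 and none at an unadjusted p under 0.05. Their summed level was 809 and 802 CPM in AM6545 A and B and 968 and 1135 CPM in C and E, against 776 to 929 CPM in vehicle samples. For the potassium channel genes the summed level was 2909, 2858, 3101 and 3294 CPM in AM6545 A, B, C and E and 2753, 3024, 2946, 2820 and 2816 CPM in vehicle A to E. In both families AM6545 E was the highest sample. The difference between the families was not tested.

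Spread between samples of a group was close to that of other genes. Among genes of at least 10 CPM, the median coefficient of variation was 12.1% over 49 members and 11.9% over 9484 genes. The steadiest members were Kcnmb4 (6.32%), Kcna1 (7.32%) and Kcnn1 (7.38%), and the most variable were Kcnt2 (22.8%), Kcnj10 and Kcnj4 (20.8% each) and Kcnip4 (19.9%). Low members varied more, up to 63.4% for Kcnk5.

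**Figure D5:**
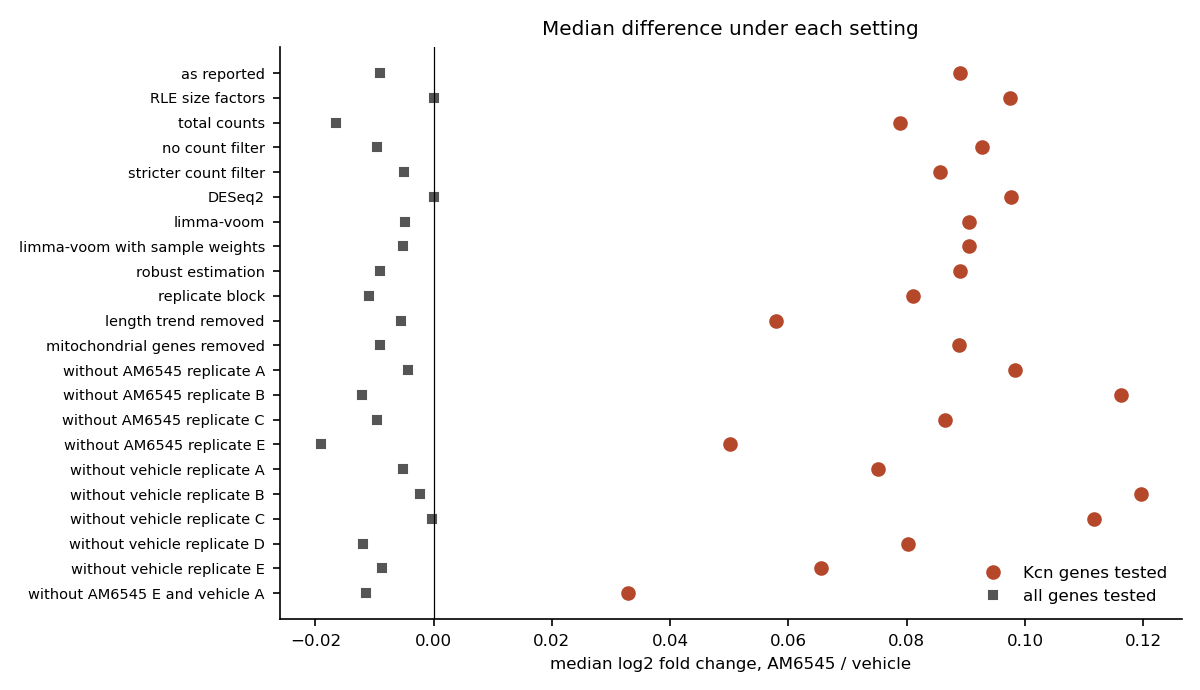
Median log2 fold change of the tested potassium channel genes (red circles) and of all tested genes (grey squares) under each of 22 settings, with the fit as reported at the top. The potassium channel median stays above that of all genes in every setting run, and is lowest without both AM6545 E and vehicle A (0.033) and highest without vehicle B (0.12).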

How the data were processed

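As deposited, the values are estimated counts of each gene in 9 libraries, without scaling between samples; 56.6% to 69.4% of a sample's values are whole numbers. Per the labels' protocols, the library kit was a low-input SMARTer kit and the sequencer an Illumina NovaSeq. The submitters' processing notes name Salmon 1.3, DESeq2 1.30 and the builds GRCm39 and mm10, with no role for either build. The annotation and strand setting are not given in the sources used here. Symbols were found for 22155 of 22255 identifiers. Lengths and sequences came from GENCODE M21 (GRCm38), whose identifier versions matched those of 0 members.

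The estimated counts were rounded to whole numbers, filtered with filterByExpr and given TMM factors. The quasi-likelihood test of edgeR 4.0.16, run in R 4.3.3, compared the groups, and its p-values were adjusted by Benjamini-Hochberg over all 14512 genes tested, with a threshold of 0.05. The gene test was tested on simulated data. Each standard error is the size of the log2 fold change over the root of its F value. All 36 pairs of libraries differed beyond sampling noise, with chi-square over its degrees of freedom at 10.5 to 94.9.

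Genes named with values were the members at an unadjusted p under 0.05, the member with the highest level per kilobase in each main subfamily, and 15 fixed members. Some of these are not reported here. Other members are given by counts, ranges or single values, and partner genes by list. The members, lists and rule were chosen with earlier results of these data known. Alternatives were RLE or total-count scaling, no or a stricter count filter, DESeq2 1.42.0, limma-voom (limma 3.58.1) with and without sample weights, the replicate letter of the titles as a block, robust estimation, a length trend removed by lowess, mitochondrial genes removed, and each sample left out. Leaving out AM6545 E and vehicle A together was added after the data were seen. Coding transcripts were compared with blastn 2.17.0 (at least 200 bases at 95%).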

Additional observations from a re-analysis of the deposited data

Results flagged for a closer look

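Among 28 results, read as 56 groups of 4 or 5 samples, 2 groups held a sample far from the others, where chance alone gives about 1 in 20 groups, or 2.8 here. Both concern Kcna2, the Kv1.2 subunit. In AM6545 E it was at 99.3 CPM, while the other AM6545 samples ran from 74.0 to 77.2 CPM, so that the gap was 0.875 of the range of the group (above Dixon's 95% critical value for 4 samples). In vehicle D it was at 74.7 CPM, while the other vehicle samples ran from 79.2 to 80.8 CPM, a gap of 0.747 of the range (above that for 5 samples). The vehicle samples other than D span less than 2 CPM.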

How the results depend on the processing

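Over 22 settings, 0 potassium channel genes passed the threshold in any. Over all genes 0 passed, apart from 1 (Gm14308) without AM6545 A, so that leaving out single samples gave 0 to 1. Potassium channel genes at an unadjusted p under 0.05, 6 as reported, numbered 1 to 9 when a sample was left out (1 without AM6545 E, 9 without vehicle B). The share of all tested genes under that threshold was 7.215% as reported, 12.65% without AM6545 E and 12.45% without vehicle B. Without both AM6545 E and vehicle A 1 member remained, against 8.592% of all tested genes. With the title letter as a replicate block the number of members was 1 (Kcnc1), against 5.23% of all tested genes. Same-letter samples correlated at -0.018, 0.037, 0.34 and -0.021 for A, B, C and E, and not every sample correlated best with its own letter, so the letters were not taken as pairs. The median log2 fold change of the members kept its sign throughout, from 0.033 to 0.12, as did its place above that of all genes. Among single genes Kcna2 moved to -0.052 and Kcnt2 to -0.17 without AM6545 E. Kcnc1 was at an unadjusted p under 0.05 in 17 of 22 settings, Kcns2 in 16, Kcnh3 in 15, Kcnab2 in 13 and Kcnh8 in 14 of 21. All of these genes passed that threshold in the fit as reported, which is itself among the settings. The other settings reuse the same samples, so these tallies are not independent support. The depth limits Kcnh8, Kcna5, Kcnk5 and Kcnmb1, each with under 150 counts in all. The causes of these moves were not tested.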
